A study of Homo sapiens with 51 samples.

Results

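The regions described here are 1555 stretches of chromatin, 201 bp each. On day 5 of neural induction they were more accessible in both mutant lines than in wild-type cells, which had gained little or no accessibility there since day 1. The 1555 regions were taken from 162317 regions (0.958%) by a rule on the counts. Each count was divided by its library's total and multiplied by 1000000 (CPM), and the CPM were averaged per group. A region was kept if KO day 5 and DATG day 5 each reached at least 4 CPM and at least 2 times WT day 5, and if WT day 5 was at most 1.2 times WT day 1. The rule thus used the WT day 1 and the WT, KO and DATG day 5 libraries under SMADi, and values from these groups are given below as descriptions without a test.

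All libraries came from H1, a long-established line of human embryonic stem cells, in the genotypes WT, KO and DATG (ΔATG). Open chromatin was profiled by ATAC-seq: a transposase cuts accessible DNA and tags the cut ends for sequencing. Neither the edited gene nor the number of clones behind a line is given in the labels. Whether replicates were grown as separate cultures is not stated either, and the p-values then reflect only how far these libraries spread, which may be technical.

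Under SMADi, a neural induction medium that the labels tie to neuroectoderm, the libraries were WT days 1, 4 and 5 (2 each), KO days 1 and 5 (2 each), KO day 4 (1), DATG days 1 and 5 (1 each) and DATG day 4 (2). Under BMP4, which the labels tie to mesoderm, each line had 2 libraries on each of days 1 to 5. Undifferentiated cells at day 0 had 2 libraries per line. All 3 genotypes were grown in the same media, and no group differs by another allele or agent in the labels.

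Open chromatin marks promoters and enhancers that transcription factors and nucleosome remodellers hold accessible. During neural induction, inhibitors of SMAD signalling block the BMP and Activin/Nodal branches of the TGF-beta family, and pluripotent cells pass into neuroectoderm, an epithelium patterned by homeobox, SOX, POU and ZIC factors. BMP4 activates the same SMAD pathway and drives the cells toward mesoderm and extraembryonic fates.

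Total counts ran from 7086918 (WT day 5 replicate a) to 23252871 (DATG day 5) under SMADi, from 4019778 to 13850448 under BMP4 and from 4616521 to 7516259 at day 0. Counts were also summed over the regions within 50 kb of a gene's end: PAX6, a neuroectoderm factor, stood at 167 and 175 CPM in WT day 1 and 178 and 193 in WT day 5, and POU5F1, a pluripotency factor, at 95.4 and 97.1 and then 54 and 50 CPM. On day 5 the mutant libraries were at 262 to 274 CPM for PAX6 and 26.6 to 36 CPM for POU5F1. LHX2, another neuroectoderm factor, gave 165 to 167 CPM in WT day 1, 157 to 158 CPM in WT day 5 and 151 to 175 CPM in the mutants on day 5. OTX2 gave 135 and 161 CPM in WT day 5 and 159 to 176 CPM in the mutants.

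Which regions met the rule depended on the 2 WT day 5 libraries, which differed from each other more than any other replicate pair under SMADi (chi-square per degree of freedom 3.1). With replicate a left out, 935 regions met it, of which 617 were among the 1555. With replicate b left out, 6091 met it, including 1446 of the 1555. Results that rest on the choice of regions are therefore also given for these 2 other sets.

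Promoter sequences are shown first because RefSeq windows were the sequence used here. RefSeq promoter windows (GRCh38.p14, 250 bases before to 50 after a gene start) overlapped 279 of the 1555 regions (17.9%), against 17768 of all regions (10.9%). The 5 stretches below are the parts of selected regions that lie upstream of the start of MAMDC2, POU3F1, CDH2, WNT9A and HES4, written 5′ to 3′ on the gene's strand, and capitals mark matches to the motifs searched. MAMDC2 is shown for its day 4 difference, POU3F1 and CDH2 for neuroectoderm, WNT9A for a gene with 5 selected regions and HES4 for one of the highest levels. They lie at chr9:70043345-70043545 (plus strand), chr1:38046884-38047043, chr18:28177131-28177313, chr1:227947933-227948107 and chr1:1000098-1000286 (the last 4 on the minus strand).
MAMDC2: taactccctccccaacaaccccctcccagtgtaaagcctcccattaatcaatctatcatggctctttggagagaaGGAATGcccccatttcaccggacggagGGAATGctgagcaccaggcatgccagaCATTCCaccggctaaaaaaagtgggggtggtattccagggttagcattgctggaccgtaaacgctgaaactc
POU3F1: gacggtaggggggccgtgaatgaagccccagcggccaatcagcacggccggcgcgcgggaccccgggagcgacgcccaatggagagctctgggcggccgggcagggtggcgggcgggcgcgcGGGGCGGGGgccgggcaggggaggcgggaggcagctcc
CDH2: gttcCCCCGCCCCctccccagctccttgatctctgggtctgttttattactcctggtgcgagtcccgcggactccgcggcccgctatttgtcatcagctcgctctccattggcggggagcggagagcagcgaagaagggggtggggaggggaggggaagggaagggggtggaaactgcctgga
WNT9A: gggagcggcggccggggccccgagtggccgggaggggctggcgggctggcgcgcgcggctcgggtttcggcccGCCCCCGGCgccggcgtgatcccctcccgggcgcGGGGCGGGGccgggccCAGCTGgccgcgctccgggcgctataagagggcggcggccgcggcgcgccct
HES4: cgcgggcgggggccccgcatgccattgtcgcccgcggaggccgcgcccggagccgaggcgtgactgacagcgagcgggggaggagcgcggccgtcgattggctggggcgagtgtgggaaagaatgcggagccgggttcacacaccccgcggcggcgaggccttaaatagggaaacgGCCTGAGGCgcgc

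The MAMDC2 stretch held 3 matches to the TEAD motif and had a GC content of 52.2%. The other 4 were richer in G and C, from 64.5% at CDH2 to 86.3% at WNT9A, and held between 11 (CDH2) and 32 (WNT9A) CpG dinucleotides. POU3F1, CDH2 and WNT9A each held 1 GC box, the site of SP and KLF factors, and HES4 and WNT9A each held 1 TFAP2 match.

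Motifs were searched on both strands, and matches may overlap. TFAP2 (GCCNNNGGC) letters were in 51.1% of the 321 windows that a selected region overlapped, in 33.1% of the 18999 windows that any region overlapped and in 23.2% of all 35116 windows. The GC box (GGGGCGGGG) was in 35.2%, 26% and 15.7% in the same order. The TEAD motif (GGAATG) was in 7.48%, 11.3% and 14%, and AP-1 (TGANTCA) in 2.49%, 4.35% and 7.71%. The neural E-box (CAGCTG) stood at 16.5%, 17.6% and 17.9%. The motif of GATA factors (AGATAA) was in 3.43%, 4.69% and 10.3%. Homeobox letters (TAATTA) were in 1.56%, 1.98% and 4.84%, and SOX (AACAATG) in 0.623%, 1.74% and 3.33%. The POU octamer (ATGCAAAT) was in 0.935%, 1.38% and 1.77%, and the T-box motif (AGGTGTGA) in 0.312%, 0.726% and 0.98%. FOX letters (TGTTTAC) were in 1.87%, 2.31% and 3.42%, and CREB (TGACGTCA) in 1.56%, 2.96% and 1.85%. The median GC content of the windows ran the same way as the GC-rich motifs, at 74% for windows at selected regions, 66% for windows at any region and 58.7% for all windows, and its part in the motif shares was not tested.

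On day 1 of SMADi the selected regions were already open to an average degree. Their median was 4.2 and 4.28 CPM in the WT day 1 libraries, where the median of all regions was 4.33 and 4.35 CPM, and 868 of the 1555 averaged at least 4 CPM in WT day 1. KO day 1 had medians of 4.81 and 4.8 CPM and DATG day 1 of 3.74 CPM. The 868 regions were thus not closed in WT at the start, and the description of the set as opened only by mutants does not hold for all of it, as the day 5 counts below also show.

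On day 5 the medians were 2.26 and 3.53 CPM in WT, 7.7 and 7.03 CPM in KO and 7.18 CPM in DATG, as the rule requires, while the median of all regions moved only from 3.54 to 4.06 CPM between these libraries. The WT day 5 replicate a was the lowest of all 15 libraries at the selected regions. The median ratio of day 5 to day 1 was 0.732 in WT, 1.61 in KO and 2.06 in DATG. All 3 mutant day 5 libraries lay above both WT day 5 libraries at 1551 regions, against 24% of all regions, a contrast that the rule itself used. At 488 regions the lowest mutant library was at least 2 times the highest WT library.

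**Figure D1:**
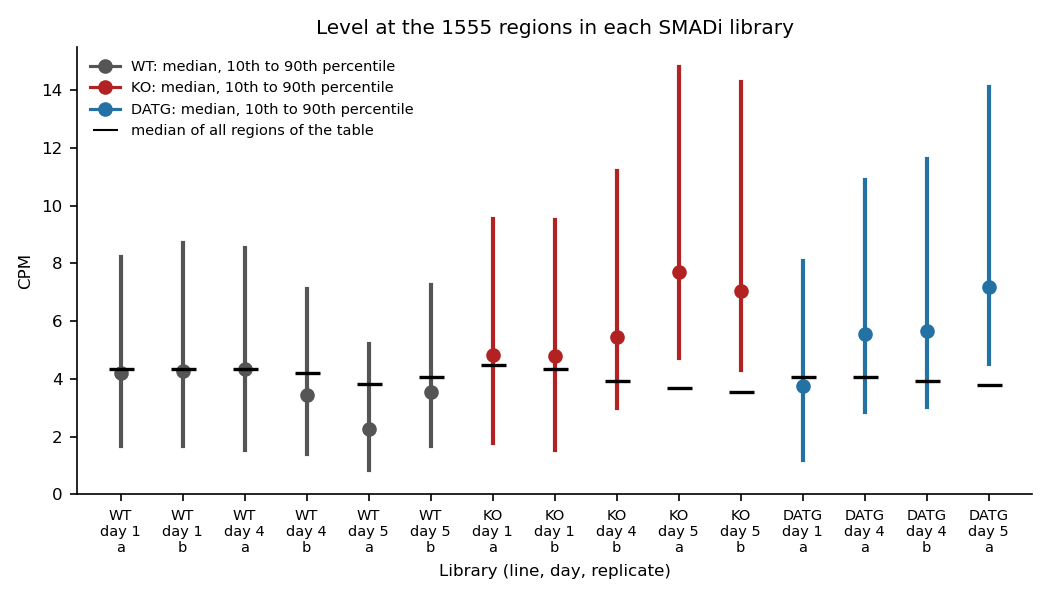
Level in CPM (y axis) at the 1555 selected regions in each of the 15 SMADi libraries (x axis), with the median as a point and the 10th to 90th percentile as a line; the black dash is the median of all regions of the table. The lines are close on day 1 and apart on day 5, where the rule chose the regions, and the day 4 libraries, which it did not use, have medians of 4.33 and 3.43 CPM in WT and 5.44 to 5.67 CPM in the mutants.

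The set mixes several courses. Both mutants reached at least 1.5 times their own day 1 level at 839 regions (54%), and at 719 of these WT kept more than 1/1.5 of its day 1 level. At 120 both mutants rose so and WT dropped to 1/1.5 of its day 1 level or lower. DATG alone passed 1.5 times its day 1 level at 392 regions and KO alone at 46. The DATG ratio rests on 1 library per day, and DATG day 1 had the lowest median of the day 1 libraries (3.74 CPM). At 278 regions (17.9%) neither mutant did so, and at 227 of these WT had dropped to 1/1.5 of its day 1 level or lower. The latter regions met the rule mostly through a loss in WT rather than a gain in the mutants.

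The thresholds cut through a continuous range. Just inside the limit of 4 CPM in KO lay regions near TGFBRAP1 (4.0025) and TBX20 (4.0097), and just outside it regions near INHBB (3.9987) and HHIP (3.9984). For DATG the nearest were ESAM and NTM (4.0425 each) inside and MAD2L2 and HEY2 (3.9995 each) outside. The ratio of KO to WT was 2.0011 at APBA1 and 2.0016 at SEPTIN5 inside and 1.9994 at RFX4 and 1.9984 at VSIG8 outside. That of DATG to WT was 2.0011 at SYNM and 2.0014 at LRRFIP2 inside and 1.9998 at TCEA1 and 1.9997 at INAFM1 outside. WT day 5 was 1.1983 times day 1 at LAPTM4A and 1.1976 times at PLG inside, and 1.2026 times at FGF14 and 1.2033 times at APBA2 outside. Failing 1 limit alone, 3910 regions missed the clause on WT, 701 and 531 the ratio of DATG and of KO, and 191 and 103 the minimum CPM of DATG and of KO.

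Day 4 of SMADi, which the rule did not use, asked whether the difference was present a day earlier. Both mutants were higher than WT at many of the selected regions. In KO 522 of 1555 (33.6%) were higher, against 10.9% of all 162313 regions tested, and the median log2 fold change was 0.58 against −0.01 for all regions (edgeR quasi-likelihood test, Benjamini-Hochberg adjusted p under 0.05, 1 KO and 2 WT libraries). In DATG 733 (47.1%) were higher, against 13.2%, with a median of 0.61 against 0.01 (2 libraries each). None was called lower in either line, where 14% and 17.4% of all regions were. At an unadjusted p under 0.05, 1 was lower in each line, and DESeq2 also called 0 lower. The 2 comparisons share the WT day 4 libraries. Both lines were called higher at 466 regions (30%), against 8.8% of all regions. The mean of both mutants was higher than WT at 782 (50.3%, all regions 15.6%) and lower at 0 (all regions 20.1%; 1 at an unadjusted p under 0.05).

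In CPM, all 3 mutant day 4 libraries lay above both WT libraries at 1051 selected regions (67.6%), against 26.4% of all regions. The WT day 4 libraries differed at these regions, with medians of 4.33 and 3.43 CPM, and replicate b weighed on the counts. Without WT day 4 replicate b, 347 regions were higher in KO (22.3%, all regions 8.48%) and 391 in DATG (25.1%, all regions 8.63%), and 2 were lower in DATG. Without DATG day 4 replicate b, 411 were higher in DATG (26.4%, all regions 7.84%). For the regions chosen without WT day 5 replicate a, 45.1% were higher in KO and 54.8% in DATG on day 4, and for those chosen without replicate b 17.9% and 28.9%.

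**Figure D2:**
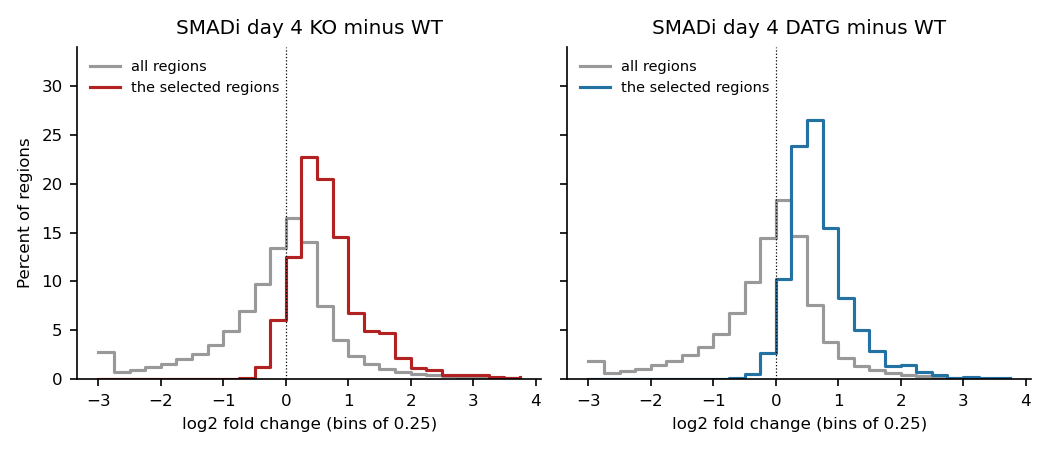
Share of regions (y axis, percent) by log2 fold change on SMADi day 4 (x axis, bins of 0.25, the end bins gathering values beyond them) for KO against WT and DATG against WT. The selected regions (coloured) lie to the right of all regions (grey) in both panels, with medians of 0.58 and 0.61.

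No selected region passed the test between KO and DATG on day 4. The median log2 fold change of KO against DATG was −0.00, with the middle 80% of regions between −0.37 and 0.35. edgeR called 0 of 1555, where 0.0142% of all regions were called, 32 had an unadjusted p under 0.05, and DESeq2 called 0. With 1 KO library a small difference would not have been detectable.

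Within each mutant line, day 4 was compared with day 1. KO rose at 457 selected regions (29.4%, against 23.2% of all regions) and fell at 15 (0.965%, against 20.3%), with a median of 0.41 against −0.01. DATG rose at 701 (45.1%, against 23.6%) and fell at 16 (1.03%, against 22.4%), with a median of 0.72 against 0.03. Without KO day 1 replicate b, the KO count was 321 (20.6%), beside 19.2% of all regions, so the KO share was then close to the background. It was also close by DESeq2 (312, 20.1%, all regions 19.2%). Without KO day 1 replicate a it was 352 (22.6%, all regions 20%), and with total counts only 355 (22.8%, all regions 20%). In these settings the share that fell in KO was 0.257% to 1.67%, against 15.2% to 23.9% of all regions. The DATG change rests on 1 day 1 library, and without DATG day 4 replicate b its count was 459 (29.5%, all regions 19.6%). The difference between the 2 lines' changes passed the test at 0 selected regions by edgeR and by DESeq2, while 184 had an unadjusted p under 0.05, and 0 percent of all regions passed it.

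Of the 839 that rose at least 1.5 times in both mutants, 44.2% were higher than WT in KO and 56.5% in DATG on day 4. Of the 278 that rose so in neither mutant, the shares were 25.5% and 38.8%. The 3910 regions that failed only the clause on WT, and so opened further in mutants than in a WT that opened too, were higher at 82% in KO and 84.9% in DATG on day 4, with medians of 1.73 and 1.53.

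The regions described next are among the 15 with the smallest day 4 adjusted p. Because they were picked on that day 4 test, their passing it adds no support, and their day 4 fold changes may be overstated. NOVA2 encodes a neuronal splicing factor, and the selected region lay in the gene (chromosome 19, 45954297 to 45954497, 19368 bp from its nearer end). It stood at 2.42 and 2.35 CPM in WT day 1, 1.03 and 1.52 in WT day 4 and 2.82 and 2.33 in WT day 5. KO had 3.46 and 3.4 CPM on day 1, 12.4 on day 4 and 14 and 17.9 on day 5, and DATG had 2.55, then 10.6 and 10.3, then 10.5 CPM. All mutant libraries of days 4 and 5 were above every WT library, and on day 4 the log2 fold change was 3.33 ± 0.29 in KO (SE, edgeR adjusted p = 2.6e-11) and 3.05 ± 0.26 in DATG (adjusted p = 4.46e-12).

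SIX3 encodes a homeobox factor of the anterior neural plate and eye, and its selected region lay in the gene (chromosome 2, 44942854 to 44943054, 1152 bp from an end). WT had 4.59 and 3.8 CPM on day 1, 0.646 and 0.762 on day 4 and 0.282 and 0.599 on day 5. KO had 3.96 and 3.69, then 5.5, then 5.82 and 4.97 CPM, and DATG 2.97, then 3.99 and 5.25, then 5.81 CPM. Here the WT libraries lost the signal while the mutants kept it. On day 4 the log2 fold change was 3.01 ± 0.38 in KO (edgeR adjusted p = 1.22e-07) and 2.74 ± 0.34 in DATG (adjusted p = 3.75e-08). It was the only selected region of 52 assigned to SIX3. Summed over all 52, accessibility at SIX3 fell in KO by 0.21 ± 0.06 on the log2 scale (adjusted p = 0.0203), and in DATG the value was −0.09 ± 0.05 (adjusted p = 0.223).

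The promoter region of MAMDC2, which encodes a secreted proteoglycan, was the one printed above with the TEAD matches (chromosome 9, 70043345 to 70043545, 36 bp outside the gene). WT went from 5.67 and 6.43 CPM on day 1 to 3.17 and 1.27 on day 4 and 3.53 and 4.72 on day 5. KO went from 7.08 and 6.27 to 11.6 and then 17.9 and 18.3 CPM, and DATG from 4.59 to 11.8 and 11.7 and then 18 CPM. The mutants rose at each later day, while WT was lowest on day 4 and stayed under its day 1 level on day 5. The day 4 log2 fold change was 2.45 ± 0.28 in KO (edgeR adjusted p = 1.33e-08) and 2.44 ± 0.24 in DATG (adjusted p = 2.12e-10).

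PDGFRB, a receptor tyrosine kinase of mesenchyme and pericytes, had a selected region inside the gene (chromosome 5, 150141936 to 150142136). WT had 5.1 and 4.63 CPM on day 1, 1.87 and 3.05 on day 4 and 4.66 and 4.33 on day 5. The mutants had 10 (KO) and 14.1 and 10.5 CPM (DATG) on day 4 and 12.9, 15.7 and 13.5 CPM on day 5. The day 4 log2 fold change was 2.08 ± 0.28 in KO (edgeR adjusted p = 2.44e-07) and 2.34 ± 0.23 in DATG (adjusted p = 2.05e-10).

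At some loci the mutants already stood above WT on day 1. A region in CCDC3, which encodes a secreted protein, had 4.4 and 6.98 CPM in WT day 1 but 14.4 and 16 in KO and 18.4 in DATG, and a region 674 bp from YPEL3 had 7.45 and 8.01 CPM in WT against 14.2, 13.4 and 14.4 CPM. FKBP5, which encodes a cochaperone of steroid receptors, had a region at 3.82 and 3.32 CPM in WT day 1 and 8.6, 11.5 and 10 CPM in the mutants. On day 4 the log2 fold changes in KO and DATG were 2.15 and 2.24 at CCDC3, 1.76 and 1.70 at YPEL3 and 1.97 and 1.77 at FKBP5, and all 6 passed the test. The WT day 1 libraries were part of the rule, so the day 1 differences have no test here.

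A region in WNT9A, a WNT ligand gene, had 2.26 and 3.11 CPM in WT day 4 against 10.9 in KO and 11.1 and 10.3 in DATG (log2 fold change 2.07 ± 0.27 and 2.02 ± 0.24). CNTFR encodes the receptor of ciliary neurotrophic factor, and a region in it had 2.84 and 2.35 CPM in WT day 4 against 9.81 in KO and 9.2 and 8.62 in DATG (1.97 ± 0.27 and 1.81 ± 0.24). CPNE7 and AATK, which encode a calcium-dependent membrane protein and a neuronal kinase, had regions with day 4 values of 1.64 and 1.51 in KO and 1.72 and 1.28 in DATG. All of these passed the test.

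**Figure D3:**
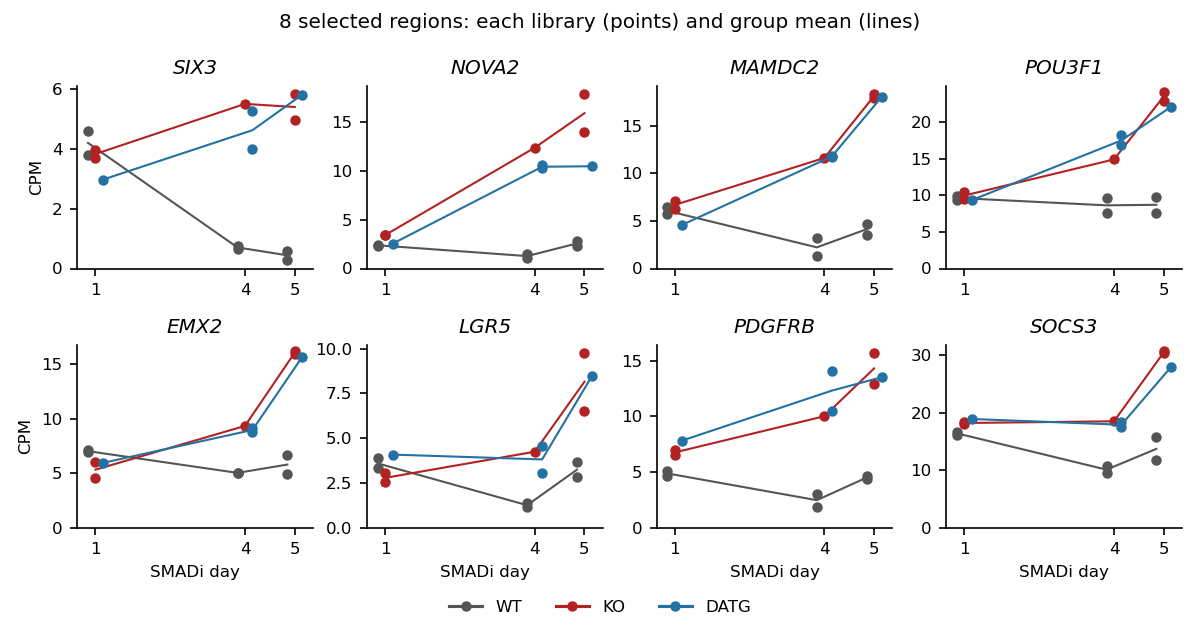
CPM (y axis) of 8 selected regions, named by the nearest gene, on SMADi days 1, 4 and 5 (x axis, to scale); points are libraries and lines join group means. In SIX3 WT fell while the mutants held their level, and in POU3F1 WT stayed near its day 1 level while the mutants rose. In EMX2 the mutants rose too, while the WT libraries of days 4 and 5 lay below those of day 1.

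The regions that were almost closed in WT throughout formed a small group with the highest ratios. A region in PLD2, a phospholipase D gene, had 0 and 2 counts in the WT day 5 libraries against 123 and 118 in KO and 111 in DATG. A region in PINX1, a telomerase inhibitor gene, had 1 and 0 counts in WT day 5 against 160, 200 and 181. One 355401 bp from KITLG, which encodes the ligand of the KIT receptor, had 0 and 2 counts against 149, 145 and 154. One in GPC6, a glypican gene, had 0 and 2 counts against 67, 79 and 109. These were named for their ratio on day 5. On day 4, which the rule did not use, KITLG had 6 and 0 counts in WT, 47 in KO and 40 and 34 in DATG, and the log2 fold changes were 4.02 ± 0.60 and 3.6 ± 0.56. GPC6 had 3 and 1 counts in WT, 10 in KO and 23 and 12 in DATG, and its log2 fold change was 2.35 ± 0.93 in KO (edgeR adjusted p = 0.0577) and 3.08 ± 0.72 in DATG (adjusted p = 0.000849). In a region with so few WT counts the fitted fold change depends on the prior count.

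The selected regions lay near gene ends more often than regions at large. Of the 1555, 704 (45.3%) were within 1 kb of an end of a protein-coding gene, against 23.3% of all regions, and 65.5% had their midpoint in a gene, against 54.2%. All regions include those under the rule's limit of 4 CPM, with medians of 3.63 CPM in KO day 5 and 3.78 CPM in DATG day 5. The part of that limit in the share near ends was not tested. The 3910 regions where WT rose too were near an end at 4.27% only. Near ends, 23.3% of the selected regions were higher in KO on day 4 and 38.2% in DATG, beside 8.57% and 12.1% of all near-end regions. Farther away the shares were 42.1% and 54.5%, beside 11.6% and 13.6%. The share near ends was 37.2% for the regions chosen without WT day 5 replicate a and 57.3% for those chosen without replicate b.

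The share of each library's counts near gene ends moved with the groups. It was 36.9% and 37.2% in WT day 1, 35.7% and 33.7% in WT day 4 and 34.9% and 35.9% in WT day 5. In the mutants it was 35.4% to 37.3% on day 1, 37.4% to 38.8% on day 4 and 40.4% to 42.4% on day 5. Its part in the differences at the selected regions was not tested.

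By chromosome, the selected share of regions ran from 0.613% on chromosome X to 1.26% on chromosome 22. Within 50 kb of a protein-coding gene end lay 1345 of the 1555 regions, assigned to 1158 genes. Most genes had 1 selected region (1017), 109 had 2, 23 had 3, 4 had 4, and 5 genes had 5. These were EMX2, POU3F2, LMX1B, WNT9A and ZFTA.

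EMX2 and POU3F2 encode forebrain transcription factors. EMX2 had 5 selected of 33 regions, between 117535251 and 117552571 on chromosome 10. On day 4 their log2 fold changes ran from −0.03 to 1.5 in KO, with 2 called higher, and from −0.24 to 1.33 in DATG, with 3 called. The region with the highest day 5 level lay 2825 bp outside the gene. It had 5.04 and 5.02 CPM in WT day 4 against 9.35 in KO and 8.79 and 9.16 in DATG, and the log2 fold change was 0.95 ± 0.24 in KO (edgeR adjusted p = 0.0028) and 0.87 ± 0.20 in DATG (adjusted p = 0.000853). The other 28 regions at EMX2 had medians of 0.50 and 0.34, so the locus as a whole moved the same way.

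POU3F2 had 5 selected of 30 regions, with day 4 medians of 0.58 in KO (1 called higher) and 0.60 in DATG (2 called), and its other 25 regions had medians of 0.19 and 0.26. LMX1B, a homeobox gene of the midbrain and limb, had 5 selected of 83 regions, with medians of 0.47 (0 called in KO) and 0.78 (3 called in DATG). Its other 78 regions had medians of 0.29 (13 higher, 3 lower) and 0.33 (20 higher, 5 lower). WNT9A had 5 of 27, with medians of 1.24 (3 called) and 0.92 (5 called), beside 0.68 and 0.62 at its other 22 regions. ZFTA, a gene fused in ependymoma, had 5 of 19, with medians of 0.42 (0 called) and 0.40 (1 called), beside 0.04 and 0.17 at its other 14 regions.

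Gene lists of lineages and pathways were compared by how many of their regions were selected. Neuroectoderm genes led, with 36 selected of 826 regions (4.36%), against 1345 of 117269 (1.15%) for all regions within 50 kb of a protein-coding gene. They lay at 20 of the 32 genes (62.5%, all genes 6.45%), among them CDH2, EMX2, FEZF2, HES5, LHX5, MEIS2, NES, NR2F1, OTX2, PAX6, POU3F1, POU3F2, SIX3, SOX2, SOX21, SOX3, ZIC2, ZIC4 and ZIC5. Genes with many regions have more chances to hold one. Under the choice without WT day 5 replicate a the share was 2.3% against 0.666%, and without replicate b 9.08% against 4.66%.

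At neuroectoderm genes the selected regions were a minority of a locus that often moved with them. Summed over all regions of a gene, 14 of the 32 genes were higher in KO on day 4 and 3 lower (all genes 9.33% and 12.1%), and 14 were higher in DATG and 2 lower (13.2% and 15.9%), with medians of 0.14 in both. HES5, a Notch target that holds neural cells in the progenitor state, had the gene-level values 0.71 ± 0.10 in KO (edgeR adjusted p = 1.6e-05) and 0.64 ± 0.09 in DATG (adjusted p = 3.09e-06). PAX6 had 0.27 ± 0.06 and 0.22 ± 0.05, both called. OTX2, a forebrain and midbrain factor, was lower over its 31 regions (−0.25 ± 0.08 and −0.24 ± 0.07, adjusted p = 0.028 and 0.00716) although 2 of them were selected, and ZIC4 was lower too (−0.29 ± 0.08 and −0.29 ± 0.06, both called). Higher sums at these genes were not limited to SMADi. On BMP4 day 5, 23 of the 32 genes were higher and 0 lower in KO (median 0.29), where 1633 and 1563 of all 17546 genes were. In DATG 8 were higher and 0 lower (median 0.18), where 396 and 567 of all genes were.

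POU3F1 encodes a POU factor of early neuroectoderm, and its promoter region (sequence above) was 91 bp outside the gene. WT had 9.87 and 9.4 CPM on day 1, 9.63 and 7.62 on day 4 and 7.62 and 9.78 on day 5. KO had 9.44 and 10.5, then 14.9, then 24.1 and 22.9 CPM, and DATG 9.35, then 16.8 and 18.2, then 22.1 CPM. WT stayed near its starting level and the mutants rose at each later day. The day 4 log2 fold change was 0.85 ± 0.20 in KO (edgeR adjusted p = 0.00138) and 1.06 ± 0.17 in DATG (adjusted p = 3.05e-06).

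CDH2 encodes N-cadherin, the adhesion molecule of the neural epithelium, and its selected region spans the promoter printed above. WT had 6.75 and 6.63 CPM on day 1, 6.53 and 6.98 on day 4 and 7.62 and 7.12 on day 5. KO had 6.83 and 6.42, then 12.5, then 16.9 and 16.6 CPM, and DATG 5.1, then 10.6 and 11.9, then 15.5 CPM. The groups did not overlap on day 4, where the log2 fold change was 0.94 ± 0.22 in KO (edgeR adjusted p = 0.00112) and 0.77 ± 0.18 in DATG (adjusted p = 0.00119). A region 9194 bp from SOX2, a factor of pluripotency and of neural progenitors, differed less on day 4, with 0.14 ± 0.36 in KO (adjusted p = 0.82) and 0.75 ± 0.28 in DATG (adjusted p = 0.0336).

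**Figure D4:**
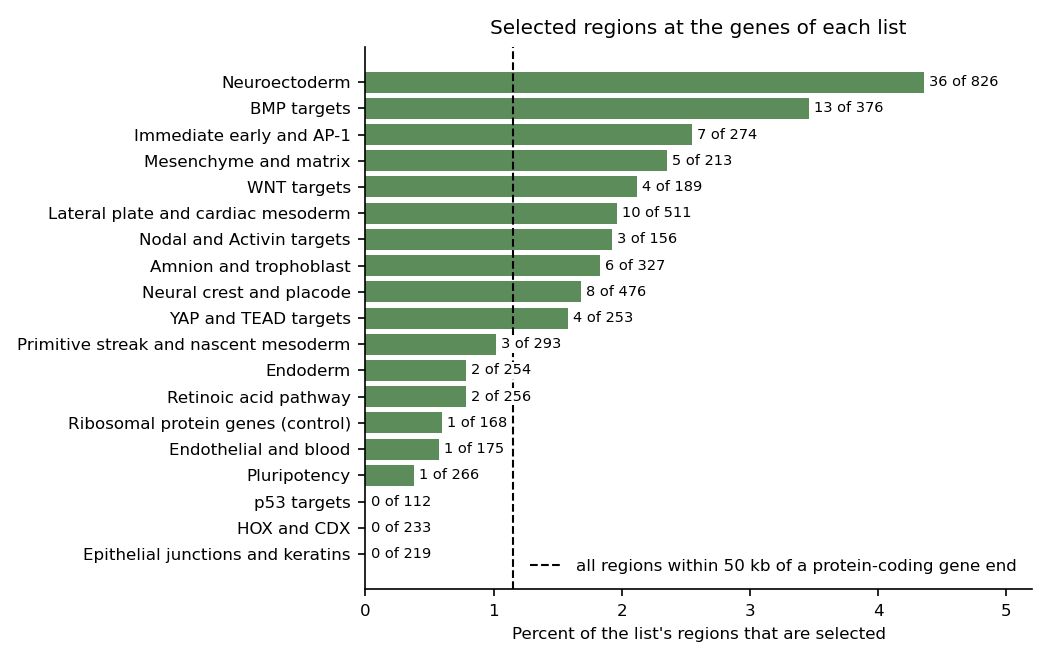
Share of each gene list's regions that were selected (x axis, percent; numbers give selected of all regions within 50 kb of the list's genes), with the share for all protein-coding genes, 1.15%, as a dashed line. Neuroectoderm and BMP target genes lie highest, and 3 lists hold none.

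BMP target genes had 13 selected of 376 regions (3.46%), at 10 of 20 genes: ATOH8, GATA3, HEY1, ID3, ID4, MSX1, MSX2, SMAD6, SMAD7 and TFAP2A. At gene level 7 of the 20 were higher in KO on day 4 and 2 lower (all genes 9.33% and 12.1%), and 10 were higher in DATG and 2 lower (all genes 13.2% and 15.9%), with medians of 0.17 and 0.19. MSX1, a homeobox gene of the dorsal neural tube and crest, had 0.42 ± 0.07 and 0.29 ± 0.06, and SMAD6, an inhibitor of BMP signalling, 0.32 ± 0.07 and 0.31 ± 0.06, all called. The selected ATOH8 region, in a BMP-induced gene of a bHLH factor, had 6.72 and 5.59 CPM in WT day 4 against 12.7 in KO and 11 and 12.7 in DATG (log2 fold change 1.11 ± 0.24 and 0.98 ± 0.20, both called). A region in SMAD7, which encodes an inhibitor of TGF-beta and BMP signalling, had 1.13 ± 0.36 in KO (edgeR adjusted p = 0.0173) and 0.84 ± 0.31 in DATG (adjusted p = 0.0328). Summed over its 27 regions, SMAD7 had −0.08 ± 0.08 in KO (adjusted p = 0.52) and 0.03 ± 0.06 in DATG (adjusted p = 0.783).

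HEY1, a Notch and BMP target, had 2 selected regions beside its promoter on chromosome 8, 199 and 418 bp outside the gene. Their day 5 levels were 25.4, 22.4 and 22.1 CPM and 23.8, 20.5 and 16.8 CPM in the mutants, against 9.45 and 9.78 and 7.48 and 8.85 CPM in WT. On day 4 the first had a log2 fold change of 0.44 ± 0.20 in KO (edgeR adjusted p = 0.108) and 0.42 ± 0.17 in DATG (adjusted p = 0.0542). The second had 0.47 ± 0.22 (adjusted p = 0.121) and 0.59 ± 0.18 (adjusted p = 0.0114). SKIL, which encodes an inhibitor of SMAD complexes, had a region 570 bp from an end with 0.44 ± 0.20 (adjusted p = 0.0987) and 0.53 ± 0.16 (adjusted p = 0.0114).

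WNT target genes had 4 selected of 189 regions (2.12%), at LEF1, LGR5 and SP5. LGR5 encodes a receptor that enhances WNT signalling, and its region, 30257 bp inside the gene, had 1.36 and 1.14 CPM in WT day 4 against 4.24 in KO and 3.04 and 4.58 in DATG (log2 fold change 1.82 ± 0.38 and 1.65 ± 0.32, both called). SP5, a transcription factor induced by WNT, had 5.23 and 4.38 CPM in WT day 4 against 11.5 in KO and 8.73 and 8.38 in DATG (1.31 ± 0.25 and 0.87 ± 0.21, both called). At LEF1, a nuclear effector of WNT, the values were 1.11 and 1.01, both called.

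Mesenchyme and matrix genes had 5 of 213 (2.35%), at PDGFRB, TWIST1 and VIM. The 2 VIM regions, in the gene of the intermediate filament vimentin, lay 386 and 133 bp from its end. The first had 9.56 and 7.62 CPM in WT day 4 against 18.3 in KO and 17.5 and 19.3 in DATG (log2 fold change 1.15 ± 0.21 and 1.14 ± 0.18, both called). The immediate early and AP-1 list had 7 of 274 (2.55%), at FOSL2, IER2, IER3, JUND, KLF6 and MYC. Its 3 named regions, at FOSL2, JUND and MYC, did not pass the test on day 4 in either line, with log2 fold changes from 0.09 to 0.44 in KO and 0.13 to 0.59 in DATG.

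Neural crest and placode genes had 8 of 476 (1.68%), at EYA1, MSX1, MSX2, SOX9, TFAP2A and TWIST1. SOX9, a factor of neural crest, glia and cartilage, had 2, of which the one 39256 bp from the gene had 0.711 and 1.08 CPM in WT day 4 against 5.37 in KO and 5.48 and 4.64 in DATG (log2 fold change 2.63 ± 0.39 and 2.52 ± 0.34, both called). Lateral plate and cardiac genes had 10 of 511 (1.96%). There a region in MEIS1, a homeobox cofactor, was low in all day 1 libraries, at 0.255 to 1.1 CPM, and on day 5 stood at 0.282 and 0.932 CPM in WT and 8.02, 7.31 and 8.64 CPM in the mutants. Its day 4 log2 fold change was 1.49 ± 0.37 in KO (edgeR adjusted p = 0.00237) and 1.2 ± 0.32 in DATG (adjusted p = 0.00361).

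The shares of the remaining lists ran from 0 to 1.92%. Nodal and Activin targets had 3 of 156 (1.92%), amnion and trophoblast 6 of 327 (1.83%), YAP and TEAD targets 4 of 253 (1.58%), primitive streak 3 of 293 (1.02%), endoderm 2 of 254 (0.787%), the retinoic acid pathway 2 of 256 (0.781%), ribosomal protein genes, kept as a control, 1 of 168 (0.595%), endothelial and blood 1 of 175 (0.571%) and pluripotency 1 of 266 (0.376%). No region was selected among the 219 at epithelial genes, the 233 at HOX and CDX genes and the 112 at p53 targets. At pluripotency and epithelial genes most gene-level sums were lower in the mutants on day 4. Of the 19 pluripotency genes, 12 were lower and 0 higher in KO, and 12 lower and 2 higher in DATG. Of the 21 epithelial genes, 12 were lower and 2 higher in KO, and 12 lower and 0 higher in DATG. Over all genes, 12.1% were lower and 9.33% higher in KO and 15.9% and 13.2% in DATG.

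Under BMP4 few of the same sites were called higher in the mutants. Of the 1555 regions, 1217 (78.3%, all regions 73.1%) overlapped a region of the BMP4 table by at least 1 bp, in 1209 distinct BMP4 regions. On day 5, 20 of these (1.65%) were higher in KO and 106 (8.77%) lower, where 5.71% of all BMP4 regions were higher and 10.1% lower. In DATG 1 was higher (0.0827%) and 72 (5.96%) lower, against 1.51% and 3.16%. The median log2 fold changes were −0.09 in KO and −0.25 in DATG, against −0.02 for all regions in each. BMP4 regions that overlap any SMADi region, a closer background added after seeing the data, were higher at 6.55% and lower at 5.93% in KO, and at 1.76% and 1.72% in DATG.

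These BMP4 counts rested partly on 1 library. Without WT day 5 BMP4 replicate b, 9 were higher (0.744%, all regions 2.28%) and 40 lower (3.31%, all regions 5.85%) in KO. In DATG 1 was then higher (0.0827%, all regions 0.148%) and 4 lower (0.331%, all regions 0.317%). Without KO day 5 replicate a, 18 were higher (1.49%, all regions 2.56%) and 45 lower (3.72%, all regions 6.25%) in KO. Without DATG day 5 replicate b, 1 was higher (0.0827%, all regions 0.759%) and 26 lower (2.15%, all regions 1.18%) in DATG. In KO DESeq2 called 6 higher (0.496%, all regions 2.1%) and 40 lower (3.31%, all regions 5.1%). In DATG it called 0 higher (all regions 0.0964%) and 4 lower (0.331%, all regions 0.0802%). With total counts only, 32 were higher (2.65%, all regions 7.3%) and 75 lower (6.2%, all regions 8.77%) in KO. In each of these settings the higher calls stayed fewer than the lower ones, an order that all regions shared except in DATG by DESeq2. In KO the selected share called lower was under that of all regions in each of these settings. Without KO day 5 replicate b it was above, with 111 lower (9.18%, all regions 8.54%) and 14 higher (1.16%, all regions 5.1%). With all libraries, the share lower in KO (8.77%) was above that of regions overlapping any SMADi region (5.93%). Averaged over days 1 to 5, KO was higher at 59 (4.88%, all regions 9.1%) and lower at 120 (9.93%, 12.4%), and DATG higher at 17 (1.41%, 4.12%) and lower at 73 (6.04%, 5.21%). Over days, regions overlapping any SMADi region were higher at 10.3% and lower at 7.79% in KO and at 4.75% and 3.31% in DATG. Without WT day 5 BMP4 replicate b the DATG counts over days were 10 (0.827%, all regions 3.23%) and 43 (3.56%, all regions 4.1%).

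Of the 466 regions higher in both mutants on SMADi day 4, 327 were measured under BMP4. Of these, 11 were higher and 45 lower in KO on day 5, and 0 were higher and 16 lower in DATG, with medians of −0.14 and −0.21. Over all BMP4 regions, 5.71% were higher and 10.1% lower in KO and 1.51% and 3.16% in DATG. Over BMP4 regions that overlap any SMADi region, 6.55% were higher and 5.93% lower in KO, and 1.76% and 1.72% in DATG. The 2 treatments come from separate tables with their own regions, so the change of the genotype effect between them was not tested.

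In WT cells, the selected regions tended to open under BMP4. From day 1 to day 5, 352 of 1209 (29.1%) rose and 48 (3.97%) fell, where 20.3% of all BMP4 regions rose and 14.7% fell, and the median was 0.28 against −0.03. Of BMP4 regions that overlap any SMADi region, 17.1% rose and 15.2% fell. The count was 192 (15.9%, all regions 14.7%) without WT day 5 BMP4 replicate b, with 22 falling (1.82%, all regions 7.15%). With total counts only, which moved the median of all regions to −0.17, 238 rose (19.7%, all regions 15.8%) and 82 fell (6.78%, all regions 22.6%). By DESeq2 202 rose (16.7%, all regions 14.7%) and 15 fell (1.24%, all regions 5.83%), so the share that rose was near the background there and without that library. The rule had set these regions apart as ones where WT day 5 was at most 1.2 times WT day 1 under SMADi. A small WT gain was thus allowed, and 1285 regions met a limit of 1.0 times. The WT day 4 mean under SMADi was above that of day 1 at 616 of the 1555 (39.6%).

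**Figure D5:**
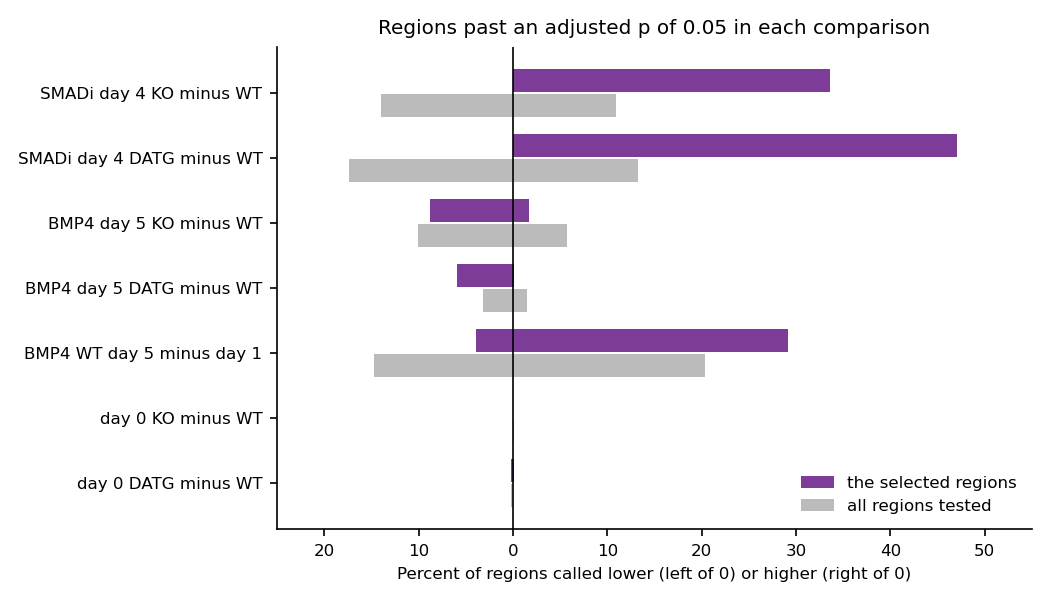
Percent of regions called lower (left of 0) or higher (right of 0) at an adjusted p under 0.05 (x axis) in 7 comparisons that the rule did not use (y axis), for the selected regions (purple) and all regions tested (grey). The selected regions are higher in both mutants on SMADi day 4 (33.6% and 47.1%) and rarely so under BMP4 (1.65% and 0.0827%).

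A region in PTCH1, the receptor of Hedgehog ligands (chromosome 9, 95462743 to 95462943), had 3.55 and 2.92 CPM in WT on SMADi day 4, against 9.15 in KO and 8.66 and 8.08 in DATG (log2 fold change 1.56 ± 0.27 and 1.40 ± 0.23, both called). Under BMP4 day 5 the order was the opposite, with 14.6 and 15 CPM in WT, 5.3 and 6.25 in KO and 8.82 and 8.21 in DATG. The log2 fold change there was −1.42 ± 0.19 in KO (edgeR adjusted p = 3.61e-09) and −0.83 ± 0.19 in DATG (adjusted p = 0.0031). WT itself had risen from 5.16 and 3.68 CPM on BMP4 day 1.

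SOCS3 encodes an inhibitor of cytokine signalling, and a region 613 bp from its end had 10.7 and 9.46 CPM in WT on SMADi day 4 against 18.5 in KO and 17.5 and 18.3 in DATG (log2 fold change 0.93 ± 0.18 and 0.86 ± 0.15, both called). Under BMP4 day 5 it had 31.5 and 34.4 CPM in WT, 14.3 and 23.6 in KO and 22.3 and 15.4 in DATG (−0.87 ± 0.15 and −0.80 ± 0.15, both called). The mutant replicates differed from each other there but stayed under both WT libraries. TIMP3, an inhibitor of matrix proteases, had a region 55994 bp away with 2.57 and 1.85 on SMADi day 4 and −1.31 and −0.93 on BMP4 day 5, all called.

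A region 5829 bp outside ADGRB2, an adhesion receptor gene of brain, had 7.86 and 8.41 CPM in WT on BMP4 day 5, 2.02 and 2.6 in KO and 4.55 and 4.48 in DATG (log2 fold change −1.88 ± 0.26 and −0.89 ± 0.25, both called), and on SMADi day 4 the values were 0.70 ± 0.47 in KO (edgeR adjusted p = 0.29) and 1.30 ± 0.36 in DATG (adjusted p = 0.00519).

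Of the sites picked for the smallest adjusted p on BMP4 day 5, 3 were called higher in a mutant both there and on SMADi day 4. They are examples and give no share of the set. Of the 327 regions called higher in both lines on SMADi day 4 and measured under BMP4, 11 were higher in KO on BMP4 day 5, where 5.71% of all BMP4 regions were. The 1 region called higher in DATG under BMP4 lay 2147 bp from LOC124904770, with 4.81 and 6.88 CPM in WT on BMP4 day 5, 15.9 and 11.6 in KO and 10.9 and 11.7 in DATG. The mutant libraries were all above WT, with log2 fold changes of 1.14 ± 0.20 in KO (edgeR adjusted p = 3.02e-06) and 0.86 ± 0.22 in DATG (adjusted p = 0.00836). On SMADi day 4 the values at LOC124904770 were 0.34 ± 0.18 in KO (adjusted p = 0.16) and 0.51 ± 0.14 in DATG (adjusted p = 0.00499). In NDRG4, a gene active in brain and heart, a region had 1.75 and 1.97 CPM in WT on BMP4 day 5, 4.8 and 4.56 in KO and 2.76 and 2.99 in DATG, with log2 fold changes of 1.25 ± 0.31 in KO (edgeR adjusted p = 0.00146) and 0.55 ± 0.37 in DATG (adjusted p = 0.469). A region in IQSEC1, which encodes an activator of ARF proteins, had 4.66 and 5.13 CPM in WT, 9.09 and 10.2 in KO and 6.48 and 9.2 in DATG (0.90 ± 0.22, adjusted p = 0.00133, and 0.56 ± 0.25, adjusted p = 0.199). NDRG4 and IQSEC1 were higher in both lines on SMADi day 4, by 1.18 and 1.42 at NDRG4 and 1.02 and 0.83 at IQSEC1.

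Before differentiation few of these regions passed the test. At day 0, 1015 of the 1555 (65.3%, all regions 58.5%) overlapped a region of the day 0 table, in 1005 distinct regions. KO had 0 higher and 0 lower by edgeR and by DESeq2, with 88 at an unadjusted p under 0.05, where 0.0537% of all day 0 regions were higher and 0.0318% lower. DATG had 1 higher and 2 lower, against 0.0408% and 0.165%. The medians were 0.05 and −0.03. Without WT day 0 replicate b 3 were higher in KO, and the higher call in DATG was lost when any 1 of the 4 WT and DATG libraries was left out. Without WT day 0 replicate a the 2 lower calls were lost as well. A region in ZFPM1, which encodes a cofactor of GATA factors, was the one higher in DATG, at 8.51 and 6.65 CPM against 3.61 and 3.11 in WT, with 7.08 and 6.93 in KO (DATG log2 fold change 1.19 ± 0.28, edgeR adjusted p = 0.0294). One of those lower was 28908 bp from DLX2, a homeobox gene of interneurons, at 5.72 and 6.04 CPM in DATG against 13.3 and 9.7 in WT, with 7.39 and 8.88 in KO (DATG log2 fold change −0.96 ± 0.23, adjusted p = 0.0327). On BMP4 day 5 this site was higher in KO (1.02 ± 0.26, edgeR adjusted p = 0.00251), with 0.78 ± 0.29 in DATG (adjusted p = 0.11). On SMADi day 4 it passed the test in neither line (0.25 ± 0.22 in KO and 0.36 ± 0.18 in DATG).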

How the data were processed

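Raw counts per 201-bp region (GRCh38) were deposited by the authors in 3 tables: day 0 with 6 libraries, BMP4 with 30 and SMADi with 15. MACS2 and the build are named in the submitters' processing notes. Aligner, peak settings, treatment of duplicates and read shifting: not given in the sources used here. CPM were computed from column totals, and the regions were chosen by the rule in the text.

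Tests used edgeR 4.0.16 (R 4.3.3) on the counts of a whole table: TMM scaling, filterByExpr, the robust quasi-likelihood F test and Benjamini-Hochberg adjustment over all regions, with 1 mean per line, treatment and day. All 1555 regions passed the filter. A group with 1 library took the spread shared by its table, and each SE was taken as |log2 fold change| over the root of its F. DESeq2 1.42.0 was an alternative. Genes came from RefSeq (GRCh38.p14), and a region was assigned to the nearest end of a protein-coding gene within 50 kb, which does not show that it acts on that gene. Gene-level values sum those regions.

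The regions named are the 15 with the smallest day 4 adjusted p (mean of both mutants against WT), up to 3 per list by day 5 level, the 5 largest day 5 ratios, 5 near gene ends by level, those with the smallest adjusted p under BMP4 and at day 0, those nearest each threshold and those at genes with most selected regions; some of these are not described. Regions, lists and named sites were chosen with earlier results of these data known. Whether PCR duplicates were removed is not stated, so a count may exceed the number of independent molecules. Some results that the naming rule covers are left out.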

Additional observations from a re-analysis of the deposited data

How the results depend on the processing

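The number of regions that met the rule was 600 at a minimum of 8 CPM, 243 at 3 times WT day 5 and 2433 with TMM-scaled CPM, and it ran from 935 to 6091 when 1 library was left out, with both ends set by the WT day 5 replicates. Leaving out 1 library at a time gave 347 (22.3%, all regions 8.48%) to 505 (32.5%, all regions 10.6%) regions higher in KO on SMADi day 4. In DATG it gave 391 (25.1%, all regions 8.63%) to 720 (46.3%, all regions 13%). From day 1 to day 4, 459 (29.5%, all regions 19.6%) to 682 (43.9%, all regions 23.4%) rose in DATG. On BMP4 day 5 it gave 9 (0.744%, all regions 2.28%) to 18 (1.49%, all regions 2.56%) higher in KO. In DATG it gave 0 to 1 (0.0827% at most, all regions 0.148% to 1.07%). Over days it gave 8 to 17 in DATG (0.662% to 1.41%, all regions 2.68% to 4.16%). In WT 192 (15.9%, all regions 14.7%) to 289 (23.9%, all regions 16.6%) rose. At day 0 it gave 0 to 3 in KO (0.299% at most, all regions 0.118% there) and 0 in DATG (all regions 0.00696% to 0.0626%). DESeq2 called 436 higher for DATG day 4 against day 1 (28%, all regions 18.4%). On BMP4 day 5 it called 6 higher in KO (0.496%, all regions 2.1%) and 0 in DATG (all regions 0.0964%). Over days it called 32 in KO (2.65%, all regions 4.79%) and 5 in DATG (0.414%, all regions 1.44%). It called 202 that rose in WT under BMP4 (16.7%, all regions 14.7%) and 0 in DATG at day 0 (all regions 0.00298%). With total counts only, 32 were higher in KO on BMP4 day 5 (2.65%, all regions 7.3%). The cause of these shifts was not tested.

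Of 153 alternatives, 120 left the value within its limits and 33 moved it. Replicate letters did not pair the libraries (correlations of their deviations between groups from −0.21 to 0.22). With a replicate block, 455 regions were higher in KO (29.3%, all regions 9.32%) and 693 in DATG (44.6%, all regions 12.4%) on SMADi day 4. At day 0 the count in DATG was then 0 (all regions 0.0189%). Under SMADi the single libraries of KO (day 4) and of DATG (days 1, 5) could not be left out.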
